A study of Bos taurus with 6 samples.

Results

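DUSP1, FOSL2, ATF3, KLF4 and EGR3 are 5 immediate early regulators that were taken by name from a deposited table of 2040 genes, and all 5 were found in it. The table came from RNA sequencing of longissimus dorsi, a muscle that runs along the back, in Angus, a beef breed, and in Chinese Simmental cattle, with 3 libraries of each breed. The samples of both breeds were taken at ribs 12 and 13 at an age of 18 months, and no treatment or genotype other than the breed is given. The labels do not say that the 3 libraries per breed are of different animals. Every p-value therefore sets the breed difference against the spread between these samples within a breed, which may be technical. Every gene in the table had passed the authors' selection for a difference between these same libraries, with an absolute deposited log2 fold change of at least 1.00 and a deposited adjusted p of at most 0.0492. That the breeds stand apart in the values below was thus set by the selection and is a description, and genes outside the table were not analysed here.

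Immediate early genes are transcribed within minutes of a stimulus such as a growth factor, stretch, hypoxia or a stress hormone, without the need for new protein. Signals that run through the MAP kinases ERK, JNK and p38 activate transcription factors already in the nucleus, which switch these genes on. DUSP1 encodes a nuclear phosphatase that removes phosphate from MAP kinases and so ends the signal. FOSL2 (Fra-2) joins JUN proteins in the dimeric factor AP-1, and ATF3 is a stress-induced member of the related ATF/CREB family. KLF4 and EGR3 are zinc finger factors, KLF4 with roles in monocytes and in the vessel wall. EGR3 is induced in activated lymphocytes, and in mice it is also needed for the development of muscle spindles, the stretch sensors of muscle.

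DUSP1, FOSL2, ATF3 and KLF4 were higher in Chinese Simmental, by 27.6-fold, 5.57-fold, 6.16-fold and 6.98-fold, while EGR3 was 5.39-fold higher in Angus. Levels are given as normalized counts, the deposited counts after division by each library's size factor from the authors. A log2 fold change is Angus minus Chinese Simmental, with its standard error after the ± sign. In the edgeR quasi-likelihood test over the table's genes, with Benjamini-Hochberg adjusted p under 0.05 as the threshold, 4 of the 5 genes were called higher in Chinese Simmental and 1 in Angus. Of all 1989 genes tested, 75.0% were called higher in Chinese Simmental and 24.9% higher in Angus, so the counts over the 5 genes stand near that background. The breeds did not overlap for any of the 5 genes, which also held for 90.3% of the 2040 listed genes. Over all genes tested the median log2 fold change was -1.57. TMM, RLE and upper quartile factors computed from the table's own genes (the listed-gene scalings) moved log2 fold changes toward Angus by a median of 1.32 to 1.36. Such factors tend to centre the fold changes of the genes they are computed over, here genes selected for a difference and mostly higher in Chinese Simmental. Lost calls and turned directions under them, given below, are to be read with that limit. Counts over the listed genes summed to between 12010803 and 28883725 per library, and the full depth of the libraries is unknown here.

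**Figure D1:**
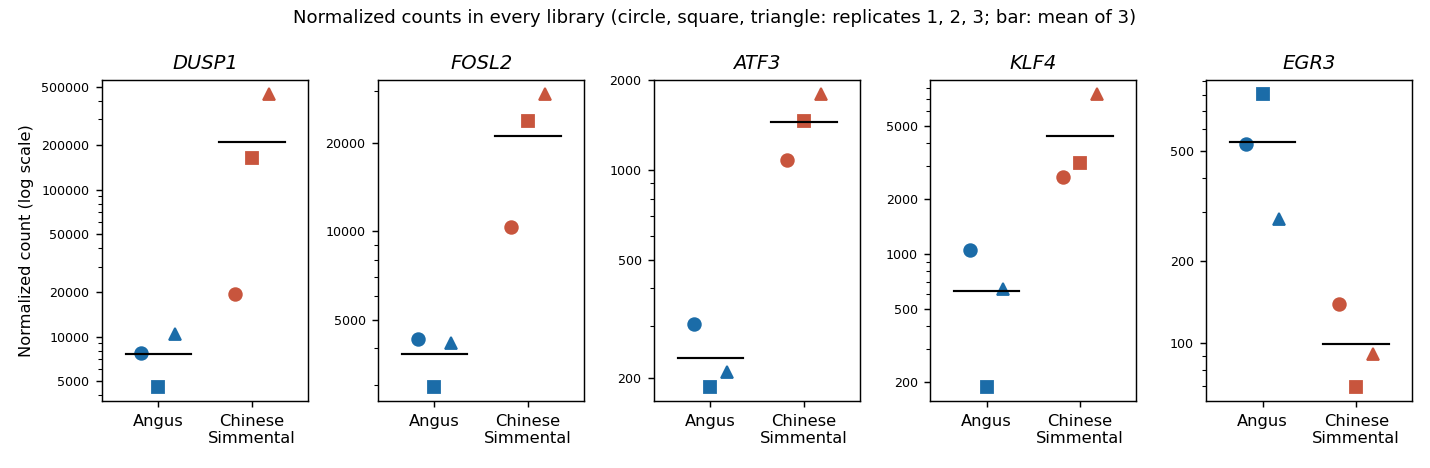
Normalized counts (log scale) of DUSP1, FOSL2, ATF3, KLF4 and EGR3 in the 3 Angus and 3 Chinese Simmental libraries, with the mean of each breed as a bar. Every Chinese Simmental library lies above every Angus library for the first 4 genes and below for EGR3, and DUSP1 in Chinese Simmental runs from 19586 to 444712.

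DUSP1 differed most between the breeds and was the most uneven within Chinese Simmental. Its normalized counts were 7754, 4559 and 10429 in Angus replicates 1 to 3 and 19586, 164105 and 444712 in Chinese Simmental replicates 1 to 3. Chinese Simmental replicate 1 stood only 1.88-fold above the highest Angus library, and replicates 2 and 3 stood far above it. The means were 7581 ± 2939 and 209468 ± 216163 (SD, n = 3 each), with a log2 fold change of -4.79 ± 1.00 and an adjusted p of 0.00460 in the edgeR quasi-likelihood test. Without Chinese Simmental replicate 3 the log2 fold change was -3.60, and under the listed-gene scalings it was -3.27 to -3.19, still called. Within Chinese Simmental the highest library was 22.7-fold above the lowest, which placed DUSP1 at rank 23 of the 1918 genes with reads in every library, where the median gene spanned 2.17-fold. Within Angus the span was 2.29-fold, against a median of 1.76-fold.

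A ratio of the counts of 2 genes within a library needs no scaling between libraries, and it is used here to compare libraries, not to rank genes. The DUSP1 count was 1.80, 1.55 and 2.51 times the FOSL2 count in Angus replicates 1 to 3. In Chinese Simmental replicate 1 it was 1.89 times the FOSL2 count, inside the Angus range, and in replicates 2 and 3 it was 6.89 and 15.2 times. The breeds therefore overlapped in this ratio, and they also overlapped in the ratios of DUSP1 to ATF3 and to KLF4.

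Other dual specificity phosphatases went the same way as DUSP1. Of 26 fixed genes of this group, 4 were in the table. All 4 were called higher in Chinese Simmental, beside 75.0% of all genes tested, with a median log2 fold change of -2.77. Under the listed-gene scalings 1 (TMM) or 2 (RLE and upper quartile) of the 4 were called, and DUSP16 turned toward Angus. DUSP2, a nuclear phosphatase of MAP kinases in immune cells, stood at 3942, 2129 and 3255 in Angus replicates 1 to 3 and at 9579, 38717 and 161430 in Chinese Simmental replicates 1 to 3. Like DUSP1 it was lowest in replicate 1 and highest in replicate 3 of Chinese Simmental, with a log2 fold change of -4.49 ± 0.93 and of -2.96 without replicate 3. DUSP6, a cytoplasmic phosphatase that acts on ERK, averaged 1469 ± 652 in Angus and 9365 ± 6938 in Chinese Simmental. Its log2 fold change was -2.67, or -1.87 without Chinese Simmental replicate 3. DUSP4 reached 177 normalized counts at most, its breeds overlapped, and its call was lost without Chinese Simmental replicate 3 (log2 fold change -1.88, from -2.86). DUSP16, which acts on JNK and p38, averaged 424 ± 55.2 in Angus and 1061 ± 305 in Chinese Simmental, a call lost without Angus replicate 2 (log2 fold change -1.22, from -1.32). The deposited annotation tied 6 listed genes, DUSP1 among them, to the inactivation of MAP kinase activity, a term picked by name. All 6 were higher in Chinese Simmental by their mean, as were 1448 of the 1918 genes with reads in every library.

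The kinases and feedback inhibitors of the same cascade also went toward Chinese Simmental. Of 66 fixed genes 11 were in the table, all 11 called higher in Chinese Simmental, beside 75.0% of all genes tested. Their median log2 fold change was -1.45, close to that of all genes tested. Under the listed-gene scalings 4 of the 11 (MAPK14, MAP2K2, MAP3K11 and MAPKAPK2) turned toward Angus and none was called. Without Angus replicate 2, 6 of the 11 were called. MAPKAPK3, a kinase activated by p38, was 3.64-fold higher at 7383 ± 2209 against 2029 ± 435. SPRY1, a feedback inhibitor of receptor tyrosine kinase signalling, was 4.73-fold higher at 328 ± 179 against 69.4 ± 22.6. MAPK13, the delta isoform of p38, averaged 193 ± 32.4 in Angus and 1196 ± 1238 in Chinese Simmental, where replicate 3 stood at 2622 and the others at 393 and 572. Its log2 fold change was -1.32 without that library, from -2.63. MAP3K6, an upstream kinase, was 3.79-fold higher, with log2 fold changes of -1.92 over all libraries and -2.54 without Angus replicate 1.

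FOSL2 and ATF3 are the leucine zipper factors among the 5 genes. They varied least of the 5 within Angus, and ATF3 also least within Chinese Simmental. FOSL2 stood at 4298, 2947 and 4153 normalized counts in Angus replicates 1 to 3 and at 10369.9, 23825 and 29329 in Chinese Simmental replicates 1 to 3. Its lowest Chinese Simmental library was 2.41-fold above its highest Angus library. The means were 3799.5 ± 742 and 21174 ± 9753, with a log2 fold change of -2.48 ± 0.46 and an adjusted p of 0.00374 by edgeR. The log2 fold change of FOSL2 was -1.10 to -1.05 under the listed-gene scalings, still called. ATF3 stood at 304, 187 and 211 in Angus replicates and at 1081, 1453 and 1788 in Chinese Simmental replicates. This gap between the nearest libraries of the breeds, 3.56-fold, was the widest of the 5 genes, and the span within a breed was 1.62-fold in Angus and 1.65-fold in Chinese Simmental. The means were 234 ± 61.6 and 1441 ± 354, with a log2 fold change of -2.62 ± 0.43 and an adjusted p of 0.00307 by edgeR. For ATF3 the listed-gene scalings gave -1.29 to -1.25, still called. The ratio of the FOSL2 to the ATF3 count was 14.1 to 19.7 in Angus and 9.59 to 16.4 in Chinese Simmental libraries, so the breeds overlapped in it.

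Of 35 other AP-1, ATF, CREB and MAF factors 8 were in the table. All 8 were called higher in Chinese Simmental, beside 75.0% of all genes tested, with a median log2 fold change of -2.17. Under the listed-gene scalings all 8 were still lower in Angus, and 2 were called. NFIL3, a repressor of the same zipper class, was 14.4-fold higher at 17449 ± 10522 against 1211 ± 672. FOS, the classical partner of JUN in AP-1, stood at 5093, 662 and 1899 in Angus replicates 1 to 3 and at 9359, 16933 and 113815 in Chinese Simmental replicates 1 to 3. Its log2 fold change of -4.19 ± 1.07 rested on the extreme libraries, at -2.36 without Chinese Simmental replicate 3 and -5.19 without Angus replicate 1. BATF3, an AP-1 factor of dendritic cells and lymphocytes, was 4.92-fold higher and even across Chinese Simmental, at 2662 ± 301, against 541 ± 326 in Angus. Its log2 fold change was -2.30, or -2.92 without Angus replicate 1. CREB5 was 4.02-fold higher at 188 ± 60.0 against 46.7 ± 7.97.

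KLF4 was the most uneven of the 5 genes within Angus. It stood at 1052, 187 and 643 normalized counts in Angus replicates 1 to 3, a 5.62-fold span, and at 2607, 3120 and 7412 in Chinese Simmental replicates 1 to 3. Angus replicate 2 was low and Chinese Simmental replicate 3 high, and the nearest libraries of the breeds were 2.48-fold apart. The means were 627 ± 432 and 4379 ± 2639, with a log2 fold change of -2.80 ± 0.67 and an adjusted p of 0.00665 by edgeR. Leaving out Angus replicate 1 gave -3.40 and leaving out Chinese Simmental replicate 3 gave -2.19. KLF4 was the only 1 of the 5 genes whose call was lost under the listed-gene scalings, at log2 fold changes of -1.44 to -1.37 and adjusted p of 0.0628 to 0.0863 by edgeR.

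Of 25 other KLF and SP factors 5 were in the table. All 5 were called higher in Chinese Simmental, beside 75.0% of all genes tested, with a median log2 fold change of -1.70. The calls depended on single libraries, since 1 of the 5 was left without Chinese Simmental replicate 3, and under the listed-gene scalings none was called and KLF9 and KLF13 turned. KLF15, a factor of muscle and liver metabolism that glucocorticoids induce, was 5.07-fold higher at 420.4 ± 173 against 82.9 ± 60.8. KLF6, itself an immediate early gene, averaged 23648 ± 9044 in Angus and 77003 ± 46319 in Chinese Simmental, with overlapping breeds. KLF13 was 2.22-fold higher, also with overlapping breeds, and KLF17 had at most 61.4 normalized counts in any library. Without Chinese Simmental replicate 3, KLF6, KLF13 and KLF15 were not called (log2 fold changes -1.31, -0.93 and -1.94), and without Angus replicate 3 KLF17 was not (-2.70). KLF6 and KLF13 also lost their calls without Angus replicate 1 or 2 or Chinese Simmental replicate 2. Without Angus replicate 2 the log2 fold change of KLF17 was -4.26, from -3.07.

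EGR3 ran opposite to the other 4 genes. Its normalized counts were 529.8, 802 and 284 in Angus replicates 1 to 3 and 139, 69.6 and 91.3 in Chinese Simmental replicates 1 to 3. The lowest Angus library was 2.04-fold above the highest Chinese Simmental library. The means were 538 ± 259 and 99.9 ± 35.4, with a log2 fold change of 2.43 ± 0.54 and an adjusted p of 0.00559 by edgeR. Left-out libraries moved it between 2.02 and 2.74, and the listed-gene scalings gave 3.70 to 3.73.

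The opposite directions of EGR3 and the other genes also fix the direction of their ratios within each library. EGR3 had 1.74, 4.28 and 1.35 counts for each ATF3 count in Angus replicates 1 to 3 and 0.128, 0.0479 and 0.0510 in Chinese Simmental replicates 1 to 3. The ratio was lower in every Chinese Simmental library than in any Angus library, and within Angus it was highest in replicate 2. The mean difference between the breeds in the log2 ratio was 4.99 against ATF3, 4.73 against FOSL2, 5.33 against KLF4 and 6.34 against DUSP1. The breeds did not overlap in any of these ratios. That had to be so, since EGR3 and the other genes each separate the breeds, in opposite directions. The ratios are thus a description and add no further evidence. The ratio of EGR3 to KLF4 was the most scattered in Angus, at 4.28 in replicate 2 and at 0.504 and 0.441 in replicates 1 and 3.

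**Figure D2:**
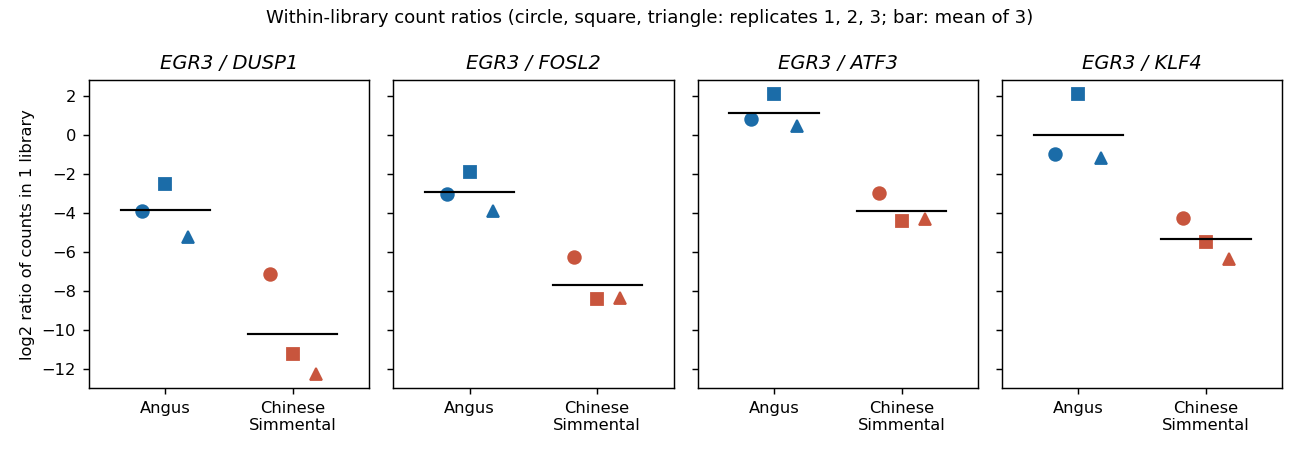
Log2 ratio of the EGR3 count to the count of DUSP1, FOSL2, ATF3 or KLF4 in the same library, for 3 Angus and 3 Chinese Simmental libraries, with the mean of each breed as a bar. Every Angus ratio lies above every Chinese Simmental ratio, by 4.73 to 6.34 between the means. This separation follows from the opposite directions of EGR3 and the other genes.

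EGR2, a close relative of EGR3, was the only 1 of 5 other EGR and NAB genes in the table, and it went the other way. It stood at 79.6, 25.0 and 60.0 in Angus replicates 1 to 3 and at 175, 466 and 2790.5 in Chinese Simmental replicates 1 to 3. Its log2 fold change was -4.37 ± 1.01, and -2.54 without Chinese Simmental replicate 3. The EGR2 count was 0.0312 to 0.212 of the EGR3 count in Angus libraries and 1.26 to 30.6 times the EGR3 count in Chinese Simmental libraries. This separation too follows from the opposite directions of both genes. In the deposited table the Swiss-Prot match of EGR3 was EGR2, and the matches of DUSP1, FOSL2 and KLF4 were their relatives DUSP6, FOS and KLF9. Another deposited annotation named each of these genes as itself, such as early growth response protein 3 for EGR3. A protein match does not show how reads were assigned. How the counting treated reads of relatives is not given, so levels within these families are uncertain.

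**Figure D3:**
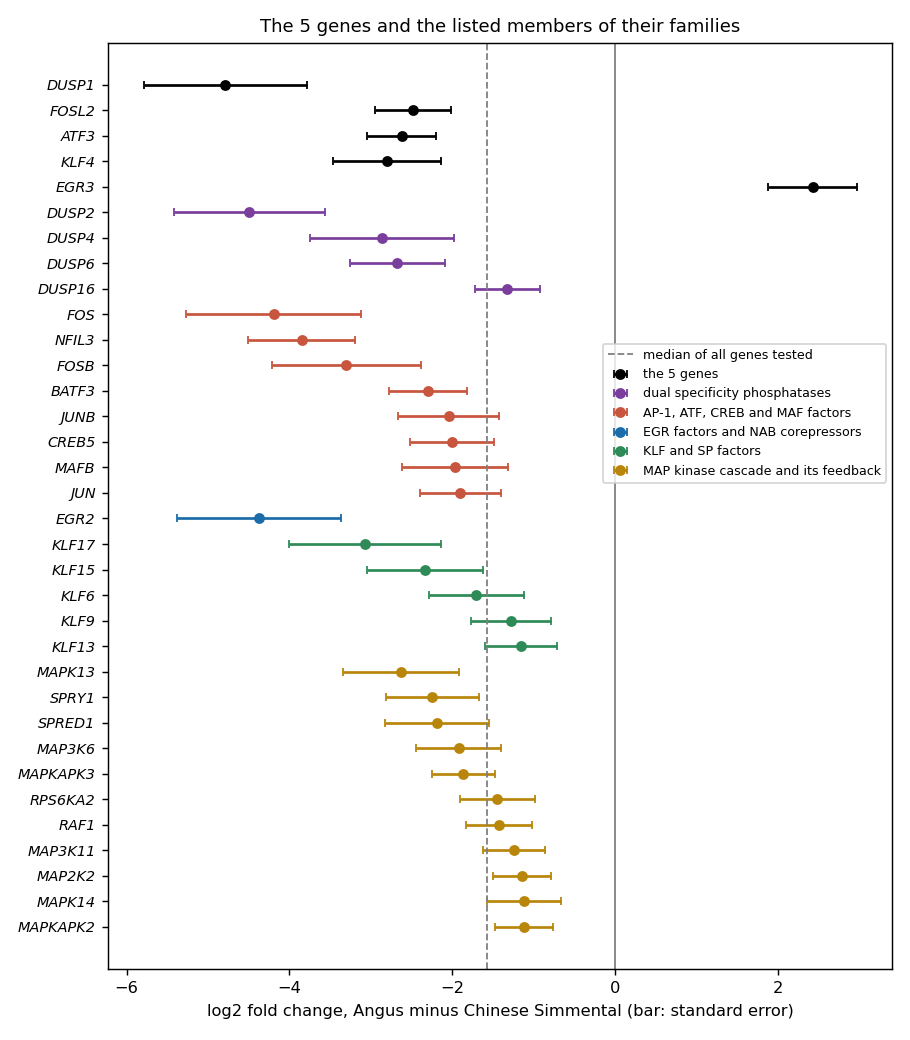
Log2 fold change (Angus minus Chinese Simmental, bar: standard error) of the 5 genes and of the listed genes of their families and cascade, with the median of all genes tested as a dashed line. With the authors' size factors all but EGR3 lie below 0. DUSP16, KLF9, KLF13, MAPK14, MAP2K2, MAP3K11 and MAPKAPK2 turn under the listed-gene scalings.

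Of 47 other immediate early genes 17 were in the table, and all 17 were called higher in Chinese Simmental, with a median log2 fold change of -1.90. IER3 and NFKBIZ turned under the listed-gene scalings, and 2 to 3 of the 17 were then called. The count was 14 without Chinese Simmental replicate 3 and between 13 and 17 over all single libraries left out. SGK1, a kinase induced by serum and glucocorticoids, was 3.99-fold higher at 9993 ± 3906 against 2503 ± 184. PIM1, a survival kinase, was 3.33-fold higher at 13901 ± 6219 against 4175 ± 263. GADD45G, a stress sensor that can activate p38 and JNK, was 13.7-fold higher at 2215 ± 2270.1 against 161 ± 119. Its log2 fold change of -3.78 became -2.56 without Chinese Simmental replicate 3 and -4.56 without Angus replicate 3. Over the 9 pathway lists together, 49 of 232 distinct genes were in the table, 47 called higher in Chinese Simmental and 2 in Angus, beside 75.0% and 24.9% of all genes tested. Without Angus replicate 2, 33 of the 49 were called. With the listed-gene scalings 8 (TMM) or 10 (RLE and upper quartile) of the 49 were called, and 10 turned toward Angus.

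Within each breed the 5 genes had the same library at an extreme, though their full order of libraries differed in Angus. DUSP1, FOSL2, ATF3 and KLF4 were all lowest in Angus replicate 2 among Angus and in Chinese Simmental replicate 1 among Chinese Simmental libraries. EGR3 was the reverse, highest in these same libraries. The low pattern held for 31.3% of the 1448 genes with reads in every library that were higher in Chinese Simmental, and the high pattern for 30.2% of the 470 that were higher in Angus. Of the 17 other immediate early genes 9 had the low pattern and 1, IER3, the high pattern. Chinese Simmental replicate 3 was highest and replicate 1 lowest for 15 of these 17, for 4 of the 5 genes and for 46.5% of the 1448 genes. The size of that gap differed between genes, since the highest library of Chinese Simmental was 22.7-fold above the lowest for DUSP1 and 1.65-fold for ATF3.

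**Figure D4:**
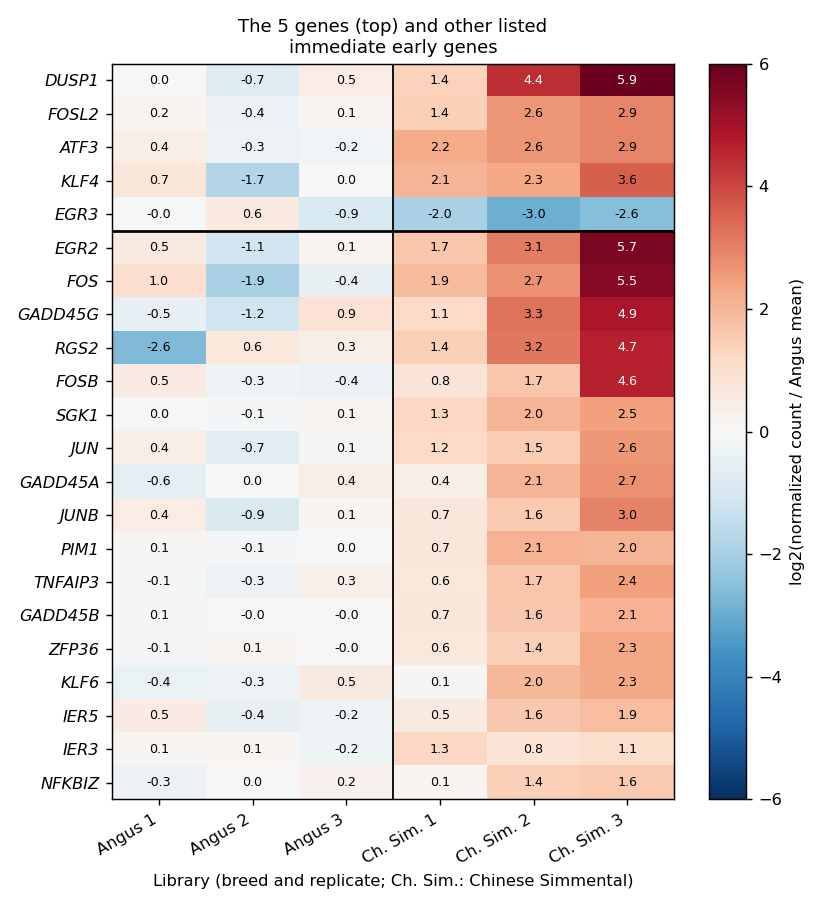
Log2 ratio of the normalized count in each library to the Angus mean for the 5 genes (above the line) and for 17 other immediate early genes, 3 libraries per breed. EGR3 is the only row below its Angus mean in all 3 Chinese Simmental libraries. Every row but EGR3, IER3 and PIM1 is highest in Chinese Simmental replicate 3. IER3 and NFKBIZ turn toward Angus under the listed-gene scalings.

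Glucocorticoids, hormones released under stress, induce DUSP1. Of 20 glucocorticoid response genes 9 were in the table and called higher in Chinese Simmental, beside 75.0% of all genes tested, with a median log2 fold change of -1.62, near the -1.57 of all genes. Under the listed-gene scalings 2 of the 9 were called and KLF9 and FOXO3 turned, and 4 of the 9 were called without Chinese Simmental replicate 3. Among them CEBPD, a C/EBP factor, was 13.6-fold higher with a log2 fold change of -3.77, or -2.97 without Chinese Simmental replicate 3. GADD45B was 3.01-fold higher at 3128 ± 1400.2 against 1039 ± 37.5. The list also held CD163, a scavenger receptor that is itself a marker of macrophages, at 11535 ± 1746 against 647 ± 280. Hypoxia and stress genes were divided, with 4 of 22 in the table, of which VEGFA and BAG3 were called higher in Chinese Simmental and HSPB8 and DNAJB4 in Angus. Neither VEGFA nor BAG3 was called under the listed-gene scalings, while HSPB8 and DNAJB4 were. The call for DNAJB4 was lost on leaving out any library but Angus replicate 1, and 7 fixed partners of serum response factor had no gene in the table.

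FPKM, which scales counts by transcript length and library size, gave the same directions. Mean FPKM was 7.10 ± 3.08 in Angus and 164 ± 155 in Chinese Simmental for DUSP1, a 23.2-fold difference, 12.0 ± 3.07 and 65.1 ± 18.6 for FOSL2, and 42.3 ± 14.5 and 249 ± 40.4 for ATF3. For KLF4 it was 2.47 ± 1.86 and 15.6 ± 7.15, and for EGR3 5.48 ± 2.39 and 1.04 ± 0.370. By mean FPKM the order in Chinese Simmental was ATF3, DUSP1, FOSL2, KLF4 and EGR3, where libraries of ATF3 and DUSP1 and of DUSP1 and FOSL2 overlapped. In Angus it was ATF3, FOSL2, DUSP1, EGR3 and KLF4, where DUSP1 and EGR3 and then EGR3 and KLF4 overlapped. The order by counts differed, with DUSP1 first in both breeds and ATF3 last in Angus. The count for each FPKM, which should follow transcript length, was 1101 for DUSP1 and 5.68 for ATF3, 194-fold apart. The median over 1500 genes with at least 50 counts in every library was 114. Which part of these transcripts the deposited FPKM covers is unknown here, so the order of levels between the 5 genes is uncertain. The count ratios between genes given here compare libraries and say nothing of which gene is the more abundant.

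Markers of white blood cells moved with the breeds. In bulk tissue more cells of a type and more RNA per cell cannot be told apart. All 9 listed of 18 macrophage and monocyte markers and all 10 listed of 18 neutrophil markers were called higher in Chinese Simmental. All 12 listed of 14 B cell markers were called higher in Angus. Of all genes tested, 75.0% were called higher in Chinese Simmental and 24.9% in Angus. CD86 turned under TMM. Under the listed-gene scalings 5 of the 9 macrophage and monocyte markers, 8 of the 10 neutrophil markers and all 12 B cell markers were called in these directions. Summed normalized counts were 18676 to 39539 in Angus and 150863 to 372980 in Chinese Simmental libraries for macrophage and monocyte markers. For neutrophil markers they were 73146 to 147821 and 667573 to 1190150, and for B cell markers 227107 to 307977 and 61696 to 89956. No listed marker was without reads. Of 23 markers of skeletal muscle, the labelled tissue, 3 were in the table (TNNT3 and NEB, called higher in Angus, and RYR1, called higher in Chinese Simmental), with sums of 1757 to 4669 over all libraries, and the levels of the others were not analysed here. All 4 listed of 16 adipocyte markers and all 3 listed of 16 T cell and cytotoxic markers were also called higher in Chinese Simmental, but under the listed-gene scalings 1 of the 4 and 0 of the 3 were called and PRF1 turned. Of fibroblast and endothelial markers 2 listed were higher in Chinese Simmental and 1 in Angus, and the only listed 1 of 14 red blood cell and platelet markers was higher in Chinese Simmental. Without Angus replicate 3 or Chinese Simmental replicate 2, 1 of the 3 T cell and cytotoxic markers was called. The call of the red blood cell and platelet marker was lost on leaving out any of 4 libraries, Angus replicates 2 and 3 and Chinese Simmental replicates 2 and 3.

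Set against the summed markers of the same library, the breed differences of DUSP1, FOSL2, ATF3 and KLF4 were smaller for the myeloid lists and larger for the B cell list. The direction of both shifts was fixed in advance. The myeloid markers were higher in Chinese Simmental, as these genes were, and the B cell markers were higher in Angus. Any other listed gene higher in Chinese Simmental would shift in the same directions, so the shifts do not tie these genes to a cell type. For each 1000 counts of the listed macrophage and monocyte markers, ATF3 had 7.68, 10.03 and 6.70 counts in Angus replicates 1 to 3 and 4.76, 9.63 and 4.80 in Chinese Simmental replicates 1 to 3. KLF4 had 26.6, 10.03 and 20.4 in Angus and 11.5, 20.7 and 19.9 in Chinese Simmental, and FOSL2 109, 158 and 132 in Angus and 45.6, 158 and 78.6 in Chinese Simmental. The breeds overlapped for all 3 genes, and the mean log2 difference, Angus minus Chinese Simmental, was 0.41, 0.07 and 0.67. DUSP1 had 196, 244 and 332 in Angus and 86.2, 1088 and 1192 in Chinese Simmental, so replicate 1 lay below and replicates 2 and 3 above the Angus libraries. Against the B cell markers the breeds did not overlap, and the mean log2 difference was -5.83 for DUSP1, -4.22 for FOSL2, -4.48 for ATF3 and -4.82 for KLF4.

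EGR3 was lower in Chinese Simmental, as the B cell markers were. For each 1000 counts of the listed B cell markers it had 1.85, 2.60 and 1.25 counts in Angus replicates 1 to 3 and 1.54, 0.910 and 1.48 in Chinese Simmental replicates 1 to 3, with overlapping breeds and a mean log2 difference of 0.51. Against macrophage and monocyte markers the difference was 5.40, with no overlap. A smaller difference against the B cell markers and a larger one against these had to follow from the direction of EGR3. The summed B cell markers were also highest in Angus replicate 2 and in Chinese Simmental replicate 1, as EGR3 was. So were 30.2% of the 470 genes with reads in every library that were higher in Angus. The myeloid sums did not share both lowest libraries of DUSP1, FOSL2, ATF3 and KLF4. The macrophage and monocyte sum was lowest in Chinese Simmental replicate 2, and the neutrophil sum in Angus replicate 1 among Angus. The markers too were chosen by the authors for differing between these libraries, and the part of any cell type in the levels of the 5 genes was not tested.

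**Figure D5:**
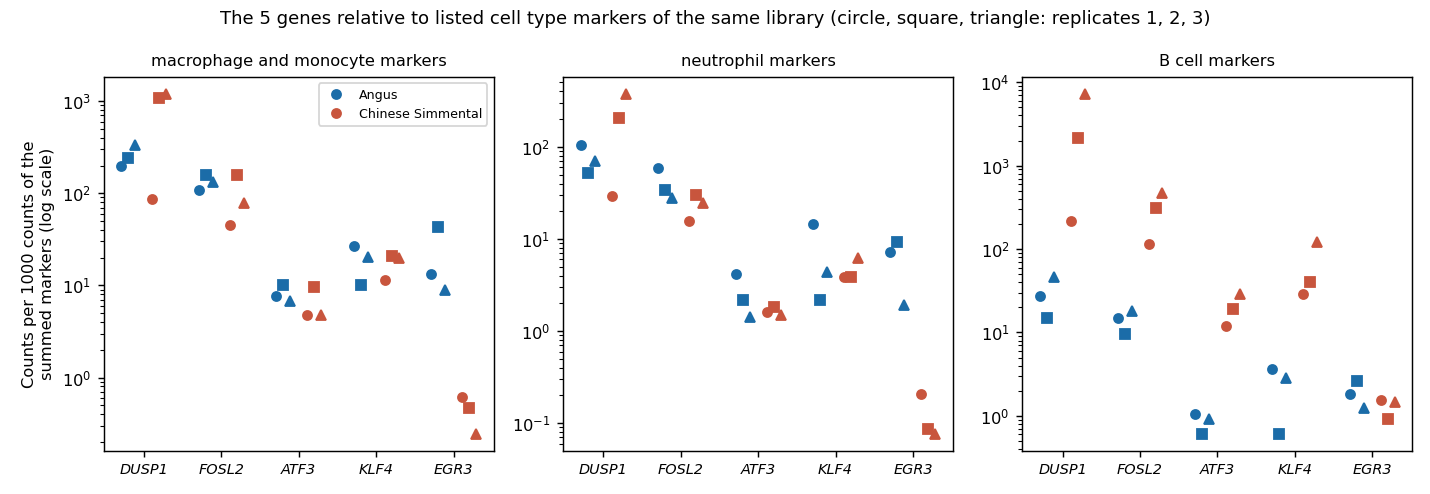
Counts of the 5 genes per 1000 counts of summed listed markers of macrophages and monocytes, neutrophils or B cells in the same library (log scale), 3 libraries per breed. The breeds overlap for DUSP1, FOSL2, ATF3 and KLF4 against both myeloid lists, and for EGR3 against B cell markers. Differences shrink where a gene and the markers are higher in the same breed, as for any listed gene.

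The genes whose pattern was nearest to each of the 5 were sought among 1424 listed genes with a symbol, by the root mean square distance of centred log2 normalized counts over the 6 libraries. Nearest to DUSP1 were DUSP2 at 0.40, GADD45G at 0.52 and PTPN5, a tyrosine phosphatase, at 0.55. Nearest to FOSL2 were C3H1orf226, DAGLB, a diacylglycerol lipase, and PPP1R3B, a glycogen-targeting subunit of protein phosphatase, at 0.11 to 0.12. For ATF3 they were ANKRD22 at 0.09, IGF1R, the receptor of insulin-like growth factor, at 0.20 and TBXAS1, the thromboxane synthase, at 0.21. For KLF4 they were the transporter SLCO4C1 at 0.15, CEBPA, a C/EBP factor of myeloid cells and adipocytes, at 0.17 and NLRP1, an inflammasome sensor, at 0.26. For EGR3 they were CLGN, a chaperone, at 0.21, FNDC4 at 0.25 and CRIP3 at 0.26. Among themselves FOSL2 and ATF3 were the closest at 0.32, and DUSP1 and EGR3 the farthest apart at 3.61. Since nearly all listed genes separate the breeds, small distances were common, and ATF3 was only the 54th nearest gene to FOSL2.

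In the authors' deposited table the log2 fold changes, Chinese Simmental over Angus, were 4.01 for DUSP1, 2.35 for FOSL2, 2.53 for ATF3, 2.51 for KLF4 and -2.26 for EGR3. Each was nearer 0 than the log2 ratio of the deposited group means of the same gene, which was 4.79, 2.48, 2.62, 2.80 and -2.43. The difference was largest for DUSP1, the gene with the widest spread within a breed. The deposited adjusted p-values ran from 2.52e-13 for ATF3 to 4.59e-05 for KLF4.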

How the data were processed

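RNA was extracted with Trizol from frozen longissimus dorsi of Angus and Chinese Simmental cattle and made into Illumina mRNA libraries, 3 per breed, per the labels' protocols. The submitters' processing notes name HISAT2 and the build ARS-UCD1.2. How reads were counted, and on which strand and annotation, is not given in the sources used here. Per the file headers, the deposited table held whole-number counts, FPKM, a mean normalized signal per breed, the authors' log2 fold changes, p-values and adjusted p. Its 1 blank row was left out and 0 per-sample columns were unused.

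Size factors were solved from the deposited group means (relative residual at most 1.52e-09) and were 0.801 to 1.17. Counts were tested in edgeR 4.0.16 under R 4.3.3 by glmQLFit and glmQLFTest with breed as the only term. The filterByExpr minimum was 10 counts, and p-values were adjusted by Benjamini-Hochberg over 1989 genes. The test was also run on data simulated from these counts, with results not reported here. Alternatives were TMM, RLE and upper quartile factors, no filter, DESeq2 1.42.0, limma 3.58.1 on log2(FPKM + 1) and log2(FPKM + 0.1), each library left out and the replicate number as a block. For the block the numbers were taken to pair the libraries, from the data and not from a stated design. Deviations from the breed means correlated at 0.274, 0.157 and 0.255 between same-numbered libraries. Between differently numbered libraries they ran from -0.361 to 0.223. Angus replicate 3 and Chinese Simmental replicate 2, at 0.223, were above the pair numbered 2, so these correlations do not establish a pairing. No exact permutation test was run, since with 3 libraries per breed its p is at least 0.1.

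The 5 genes, the gene lists and the tests were chosen with earlier results of these data known. Named genes were the 5, up to 4 of each pathway list with the smallest p, and the 3 nearest patterns per gene with a mean normalized count of at least 100 (pseudocount 1). IER3, NFKBIZ, KLF9 and FOXO3, the other genes that turned and the markers named were picked after their values were seen. Symbols of all 5 genes matched RefSeq (ARS-UCD2.0), another assembly than the files' build, so no coordinates are printed. Promoter motifs were not analysed here, and the result of 1 marker gene under other scalings is not reported here.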

Additional observations from a re-analysis of the deposited data

How the results depend on the processing

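All 5 genes kept their direction under the 14 alternatives. DUSP1, FOSL2, ATF3 and EGR3 also kept their call under each. KLF4 lost its call only under the 3 scalings computed over the listed genes. These scalings moved log2 fold changes toward Angus by a median of 1.36 (TMM), 1.35 (RLE) and 1.32 (upper quartile). With these KLF4 was at -1.37, -1.41 and -1.44 and no longer called, and 256, 263 and 282 listed genes were called higher in Chinese Simmental in place of 1492. Leaving out single libraries gave log2 fold changes of -5.33 to -3.60 for DUSP1, -2.81 to -2.17 for FOSL2, -2.86 to -2.44 for ATF3, -3.40 to -2.19 for KLF4 and 2.02 to 2.74 for EGR3. All 5 stayed called, with the largest adjusted p at 0.0243 by edgeR. Calls over the table were then 291 to 466 higher in Angus (495 with all libraries) and 1059 to 1423 higher in Chinese Simmental, the lowest without Angus replicate 2. With the replicate block the log2 fold changes were -4.15 for DUSP1, -2.38 for FOSL2, -2.63 for ATF3, -3.00 for KLF4 and 2.35 for EGR3, and the block changed no call of the 5 genes or of the genes in the pathway lists. On log2(FPKM + 1) EGR3 was at 1.61 and DUSP1 at -3.76. Scalings over the listed genes tend to centre the fold changes of genes that were selected for a breed difference. The cause of the other shifts was not tested. The depth of the libraries is unknown, since the table holds selected genes only.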
